A study of Gallus gallus with 24 samples.

Results

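The antigen response of female chickens was read from jejunal RNA as the difference between hens injected with sheep red blood cells (SRBC) and hens that were not injected. The labels do not give the sex of a bird. Females were therefore picked by transcripts of the W chromosome, which only female birds carry: a library was kept when log2(TPM + 1), averaged over 30 W genes with a mean of at least 1 TPM, was above 2. TPM is a relative transcript abundance, corrected for gene length, in which the values of each library add up to a fixed sum. The rule kept 13 of 24 libraries, 7 from injected and 6 from uninjected birds. The lowest female value was 3.32, in HASI replicate 1, and the highest value among the 11 other libraries was 0.33, in LASI replicate 4. Those values chose the birds and are given only as a description. Of the 30 genes 5 have a symbol: HNRNPKL, NIPBLL, SPIN1W, UBAP2 and Wpkci-7.

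The birds belong to HAS and LAS, chicken lines bred for strong (HAS) and weak (LAS) antibody production against SRBC, an antigen that does not replicate in the host. The 4 groups of hens were HASI (HAS, injected, 4 hens), HASN (HAS, not injected, 3 hens), LASI (LAS, injected, 3 hens) and LASN (LAS, not injected, 3 hens). All of them are labelled as jejunum at 5 days post injection, the uninjected hens included. The labels give no age, batch or date, and no route of injection. Each hen gave 1 library. The question is which jejunal transcripts differ between injected and uninjected hens when the line is held as a factor, and whether that difference depends on the line or the sex.

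As background, the jejunum is the middle stretch of the small intestine. Its villi are covered by enterocytes that digest and absorb nutrients, its crypts hold the stem cells that renew them, and tight junctions seal the space between neighbouring cells. The wall also holds lymphocytes, plasma cells that secrete antibody, muscle, nerves and vessels.

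The marker genes were those of intestinal epithelium. Whether they mark the jejunum rather than another stretch of intestine was not tested. Of 14 epithelial markers 11 had values, without SI, CDX2 and ALPI, and of 21 pancreatic markers 12 had values. The epithelial markers were abundant in every female library: FABP2, an intestinal fatty acid binding protein, was at 3883 to 11107 TPM in injected and 4562 to 8783 TPM in uninjected hens, and EPCAM, an adhesion molecule of epithelial cells, was at 1663 to 2577 and 1993 to 2354 TPM. Markers of pancreatic acinar cells, from the organ lying beside the upper gut, summed to 10.8 to 22.6 TPM in injected and 11.2 to 20.4 TPM in uninjected hens, and 9 of the 12 in the table were under the expression filter. In bulk tissue, fewer cells of a type and less RNA per cell cannot be told apart.

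The female libraries differed from each other in ways that moved with injection. The 13 genes encoded by mitochondrial DNA took 15.8% to 38% of all TPM in the 7 injected hens (median 24.5%) and 11% to 19.7% in the 6 uninjected hens (median 15.9%). Of the injected hens only LASI replicate 6 lay within the uninjected range. Means were 26.3% ± 7.73 (SD, n = 7) and 15.3% ± 3.13 (n = 6), a difference of 10.7 percentage points with line as a stratum (exact two-sided permutation p = 0.00857, or 0.146 after adjustment over 17 library measures).

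A second measure was how steeply log2(TPM + 1) falls with the log2 genomic span of genes within a library, expressed as a slope, which is more negative where long genes are less abundant relative to short ones. It lay between -0.22 and -0.06 in injected hens (median -0.18) and between -0.24 and 0.01 in uninjected hens (median -0.04). HASN replicate 3, at -0.24, stood apart from the 5 other uninjected hens, whose lowest value was -0.05, and LASI replicate 6, at -0.06, stood nearest to the uninjected hens among the injected. The difference was -0.11 (exact permutation p = 0.0386, adjusted 0.17). The number of genes above 0 TPM was 14285 to 14511 in injected and 13722 to 14801 in uninjected hens (exact permutation p = 0.793). The table holds no read counts, so sequencing depth is unknown. The count over all tested genes is given with and without HASN replicate 3 and LASI replicate 6. Such counts are given for some gene lists, not all. For some named genes, not all, it is said where these hens make the treatments overlap. The part of these library measures in the calls was not tested. Fits with the slope or the mitochondrial share as a covariate are quoted for their values. Both measures moved with injection, so such fits cannot tell them apart from injection.

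**Figure D1:**
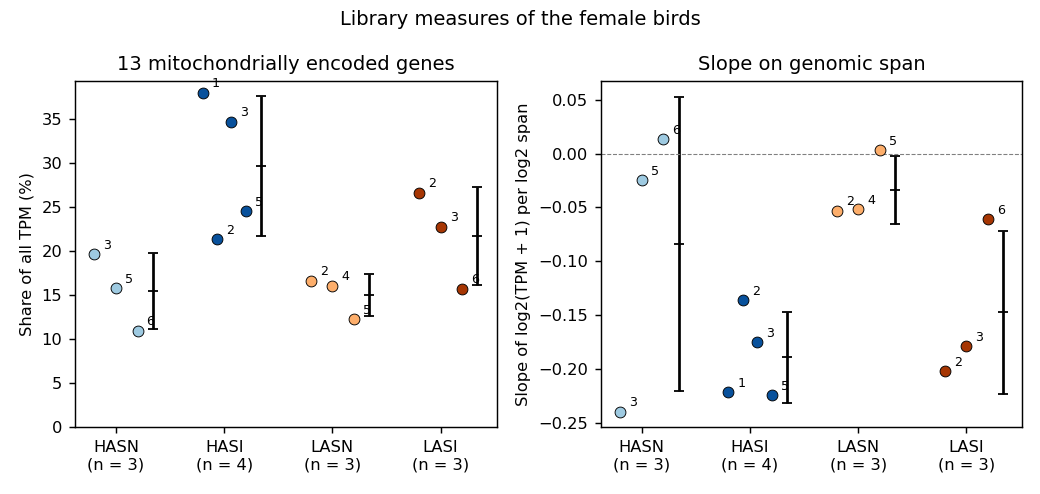
Share of all TPM taken by the 13 mitochondrially encoded genes (left, percent) and slope against log2 genomic span (right) in the 13 female libraries, with replicate numbers beside the points and the mean ± SD of each group to their right. Injected hens reach shares of 15.8% to 38% against 11% to 19.7% in uninjected hens, and HASN replicate 3 has the lowest slope, -0.24.

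Across the transcriptome, injected hens had lower values of many genes and higher values of few. Of 12847 genes tested with limma at an adjusted p below 0.05, 4338 passed, which is 33.8% of those tested: 158 were higher (1.23%) and 4180 lower (32.5%) in injected hens. Over all tested genes the median log2 fold change was -0.37, on a scale where all genes of a library share a fixed total. After median-ratio rescaling, which sets a typical gene to no change, that median was 0.02, and 1040 genes were higher (8.1%) and 1916 lower (14.9%), or 23.0% in all. After rescaling over nuclear genes alone, the median was -0.20, with 367 higher (2.86%) and 2227 lower (17.3%), or 20.2% in all. With the slope on genomic span as a covariate 48 were higher (0.374%) and 331 lower (2.58%), or 2.95% in all. With the mitochondrial share as a covariate 0 were higher and 2 lower. Both covariates moved with injection, so these counts cannot tell them apart from injection. Without HASN replicate 3 the count was 7189 (467 higher, 6722 lower), and without LASI replicate 6 it was 5793 (285 higher, 5508 lower). Leaving out HASN replicate 5 gave 710, HASN replicate 6 gave 853, LASI replicate 2 gave 986, LASN replicate 5 gave 1085, LASI replicate 3 gave 1309, HASI replicate 1 gave 1509, HASI replicate 3 gave 2089 and LASN replicate 2 gave 2599. Without HASI replicate 2, HASI replicate 5 or LASN replicate 4 the counts were 4870, 2912 and 3187.

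**Figure D2:**
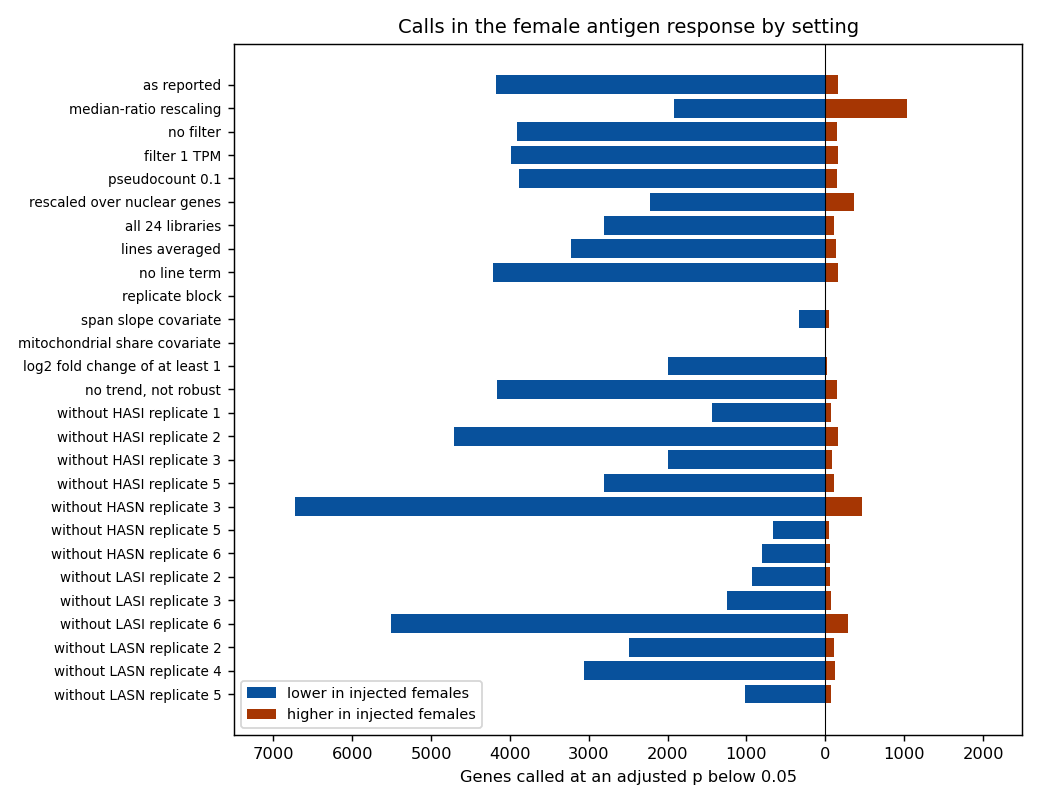
Number of genes called lower (bars to the left) or higher (bars to the right) in injected than in uninjected hens at an adjusted p below 0.05, under each setting and with each library left out. The count as reported is 4180 lower and 158 higher, and the range over libraries left out is 710 to 7189 in all.

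A smaller set of calls was less dependent on 1 library. In every one of the 13 fits that left out a library, 651 of the 4338 genes passed in the same direction (39 higher, 612 lower). Of these, 562 also passed under both rescalings, and 226 (19 higher, 207 lower) passed with the span slope as a covariate as well. Injected and uninjected hens did not overlap in 259 genes (2.02% of those tested), 29 higher (0.226%) and 230 lower (1.79%). The 9 genes described next belong to that set of 226. With the mitochondrial share as a covariate, ENSGALG00000054033 was the only one of the 9 that passed.

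TP53INP2, which encodes a regulator of autophagy, fell on injection. It was at 0.551 to 1.58 TPM in injected hens (median 0.807) and 2.74 to 5.97 TPM in uninjected hens (median 4.28), with no overlap. The log2 fold change was -1.45 (SE 0.18, adjusted p = 0.00202), and -1.16 after median-ratio rescaling. PRELP, which encodes a proteoglycan of the extracellular matrix, was at 6.65 to 13 TPM (median 9.76) against 17.8 to 25.4 TPM (median 19.9) (log2 fold change -1.03, SE 0.16, adjusted p = 0.00644). The lowest uninjected hen lay above the highest injected hen in both genes, in either line and also for HASN replicate 3.

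WIPF2, which encodes a partner of WASP proteins in actin assembly, was at 4.07 to 10.4 TPM in injected hens (median 6.63) and 14.8 to 22.1 TPM in uninjected hens (median 18.5). Its log2 fold change was -1.42 (SE 0.19, adjusted p = 0.00218). ZNF362, a zinc finger gene, was at 11.7 to 17.1 TPM (median 14.4) against 23.2 to 31.0 TPM (median 29.7) (log2 fold change -0.95, SE 0.12, adjusted p = 0.00202). In neither gene did the treatments overlap.

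The smallest p-value belonged to ENSGALG00000054033 (chromosome 5, 40114 to 58105 in the galGal6 build), an identifier that the files pair with no name. It was at 0.0242 to 0.426 TPM in injected hens (median 0.139) and 3.6 to 8.56 TPM in uninjected hens (median 6.07). Its log2 fold change on log2(TPM + 1) was -2.55 (SE 0.16, adjusted p = 5.49e-06), and it passed in all 25 other settings, with adjusted p-values up to 0.00266.

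Among the genes with a symbol that rose, OST4 stood highest by fold. It encodes a small subunit of the oligosaccharyltransferase, which attaches sugars to new proteins in the endoplasmic reticulum, and its annotated model is short (ENSGALG00000029837, chromosome 3, 104460533 to 104460646). OST4 was at 10.6 to 23.1 TPM in injected hens (median 17.0) and 0 to 8.46 TPM in uninjected hens (median 2.86). The groups did not overlap, and the uninjected hen nearest to the injected ones was HASN replicate 3. Its log2 fold change was 2.35 (SE 0.39, adjusted p = 0.00778).

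POU2F1, which encodes the octamer-binding transcription factor Oct-1, was at 5.36 to 10.1 TPM (median 7.68) against 1.97 to 5.46 TPM (median 3.14) (log2 fold change 1.05, SE 0.22, adjusted p = 0.0138). SREK1IP1, whose product binds a splicing regulator, was at 11.1 to 26.4 TPM (median 22.5) against 6.93 to 11.2 TPM (median 8.72) (log2 fold change 1.10, SE 0.20, adjusted p = 0.0103). In both genes the groups overlapped only through LASI replicate 6, which was the lowest injected hen. ENSGALG00000049622 (chromosome 2, 98595195 to 98602179), again without a name, was at 31.9 to 67.8 TPM (median 50.8) against 12.8 to 23.3 TPM (median 15.7) (log2 fold change 1.52, SE 0.19, adjusted p = 0.00202). Its model overlaps that of another gene without a name, and whether the counting used strand is not given in the sources used here.

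**Figure D3:**
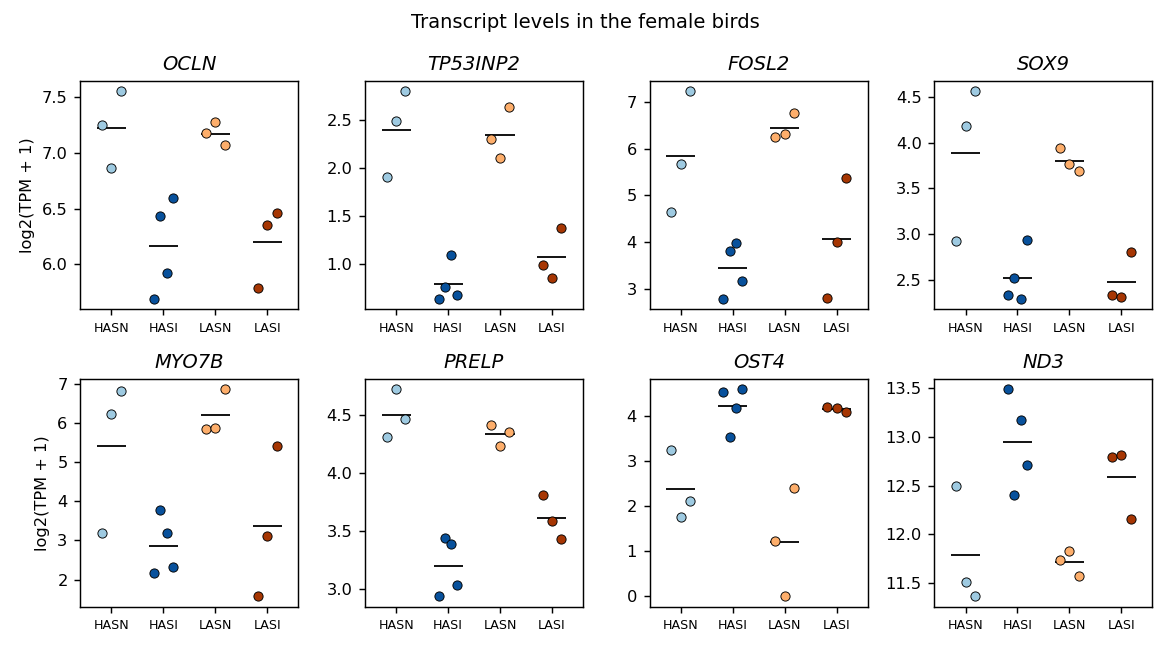
log2(TPM + 1) of 8 genes in the 13 female libraries by group, each point 1 hen and each line the mean of a group. OCLN, TP53INP2, PRELP and OST4 do not overlap between injected and uninjected hens, while in FOSL2, SOX9, MYO7B and ND3 HASN replicate 3 lies near or within the injected values.

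The mitochondrially encoded genes rose as a block. They code for subunits of the respiratory chain and of ATP synthase, and all 13 tested were higher in injected hens (0 lower), with a median log2 fold change of 0.79, or 1.24 after median-ratio rescaling. ND3, a subunit of complex I (chromosome MT, 10776 to 11126), was at 4564 to 11512 TPM in injected hens (median 7100) and 2633 to 5781 TPM in uninjected hens (median 3230). HASN replicate 3, at 5781 TPM, was the uninjected hen within the injected range. On the log2 scale the change was 1.02 (SE 0.22, adjusted p = 0.0146). CYTB, the cytochrome of complex III, was at 11738 to 33836 TPM (median 21967) against 8394 to 14687 TPM (median 11976) (log2 fold change 0.89, SE 0.20, adjusted p = 0.017). LASI replicate 6, at 11738 TPM, was the only injected hen within the uninjected range of CYTB.

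ATP8, a subunit of ATP synthase, had a log2 change of 1.24 (SE 0.29, adjusted p = 0.017), and ND4L, of complex I, 0.91 (SE 0.23, adjusted p = 0.0202). ND6, the complex I subunit read from the other strand of the mitochondrial genome, had 1.24 (SE 0.30, adjusted p = 0.0178), and COX1, the catalytic subunit of complex IV, had the smallest value, 0.61 (SE 0.19, adjusted p = 0.0326). The annotated ATP8 model overlaps ATP6, and ND4L overlaps ND4, which leaves the division of reads between them uncertain. Leaving out 1 library left 2 to 13 of the 13 genes called, and ND3 and CYTB passed in each of those 13 fits. With the span slope as a covariate 0 of the 13 passed, with a median log2 fold change of 0.47.

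The nuclear genes of the same machinery gave few calls. Of 53 nuclear genes of oxidative phosphorylation tested, 1 was higher and 1 lower, or 1.89% each. Over all tested genes 1.23% were higher and 32.5% lower. UQCR10 of complex III rose by a log2 change of 0.62 (adjusted p = 0.0453), and NDUFS1 of complex I fell by 0.77 on the log2 scale (adjusted p = 0.0288). The median of the 53 was 0.16, above the -0.37 of all genes, and 0.61 after median-ratio rescaling. That rescaling called 6 of the 53 higher and 0 lower, beside 8.1% higher and 14.9% lower of all tested genes. With the slope as a covariate the list median was -0.17. After rescaling over nuclear genes 4 were higher and 1 lower. Without HASN replicate 3, 20 of the 53 were higher and 2 lower, without LASI replicate 6 it was 6 and 3, and in the other fits with a library left out 0 or 1 was higher. Of all 12847 tested genes, 467 were higher and 6722 lower without HASN replicate 3, and 285 and 5508 without LASI replicate 6. Cytosolic ribosomal protein genes had a median of 0.20, with 4 of 64 higher (6.25%, beside 1.23% of all tested genes) and 0 lower: RPS15A, RPL29, RPS24 and RPL36 rose by log2 fold changes of 0.36 to 0.50. After median-ratio rescaling 28 of the 64 were higher and the median was 0.65, and with the slope as a covariate 0 were higher, 1 was lower and the median was -0.03. After rescaling over nuclear genes 27 were higher. The count was 31 without HASN replicate 3 and 19 without LASI replicate 6, and 0 to 2 without any other library.

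Of the junction genes that fell, occludin had the smallest adjusted p. OCLN, which encodes a membrane-spanning protein of the tight junction (ENSGALG00000037316, chromosome 28, 3463016 to 3469363), was at 50.6 to 95.4 TPM in injected hens (median 80.7) and 115 to 187 TPM in uninjected hens (median 148). The groups did not overlap, and HASN replicate 3, at 152 TPM, lay with the other uninjected hens. On the log2 scale the change was -1.02 (SE 0.17, adjusted p = 0.00878), -0.58 after median-ratio rescaling and -0.92 where the slope was a covariate. It was -1.07 in HAS hens and -0.98 in LAS hens, neither past the threshold within a line (adjusted p of 0.136 and 0.223).

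Of the 18 genes tested on the tight and adherens junction list, 8 fell (44.4%, beside 32.5% of all tested genes) and 0 rose, with a median log2 fold change of -0.48, or -0.03 after median-ratio rescaling, where 4 were lower and 1, CLDN10, higher. Leaving out 1 library gave 1 to 10 lower, 10 without HASN replicate 3 or LASI replicate 6. The count was 1 to 5 without HASI replicate 1 or 3, HASN replicate 5 or 6, LASI replicate 2 or 3, or LASN replicate 2 or 5. OCLN was the only member of the list that passed in every fit with a library left out, both rescalings and the slope covariate. TJP1, which encodes the scaffold ZO-1, was at 2.04 to 26.8 TPM (median 5.38) against 6.31 to 57.3 TPM (median 32.9). HASN replicate 3, at 6.31 TPM, lay among the injected hens. LASI replicate 6, at 26.8 TPM, was the highest injected hen and lay under all uninjected hens but HASN replicate 3. The log2 fold change of TJP1 was -1.89 (SE 0.51, adjusted p = 0.0225), and -0.47 with the slope as a covariate (adjusted p = 0.299). PATJ and PARD3, polarity scaffolds, fell by 1.61 and 0.84 on the log2 scale, CTNND1, a catenin, by 0.98, JAM2 by 0.75, CLDN12 by 0.77 and CDH1, E-cadherin, by 0.49. After median-ratio rescaling JAM2, PARD3, CDH1 and CLDN12 no longer passed. CLDN1, a claudin, had a log2 change of -0.31 (adjusted p = 0.368) and of 0.03 after rescaling.

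Crypt and Wnt pathway genes held the lowest list median. Of 23 tested, 12 fell (52.2%, beside 32.5% of all tested genes) and 0 rose, with a median log2 fold change of -0.82 beside -0.37 for all genes. Leaving out 1 library gave 3 to 17 lower, 17 without HASN replicate 3 and 3 to 7 without HASI replicate 1 or 3, HASN replicate 5 or 6, LASI replicate 2 or 3, or LASN replicate 5. After median-ratio rescaling the median was -0.47, with 9 lower and 2 higher, beside 14.9% lower and 8.1% higher of all tested genes. On deposited TPM 20 of the 23 had a negative log2 fold change and 3 a positive one. Only members that fell are named below. SOX9, which encodes a transcription factor of crypt progenitors, was at 3.91 to 6.67 TPM in injected hens (median 4.07) and 6.58 to 22.6 TPM in uninjected hens (median 13.5). HASN replicate 3, at 6.58 TPM, overlapped the injected hens, and the other 5 uninjected hens lay above all 7. The log2 fold change was -1.34 (SE 0.24, adjusted p = 0.00974). MSI1, an RNA-binding protein of progenitors, was at 6.58 to 15.5 TPM (median 9.18) against 13.4 to 26.1 TPM (median 22.2) (log2 fold change -0.99, SE 0.22, adjusted p = 0.0153). It passed in each fit with a library left out and not with the slope as a covariate (adjusted p = 0.125).

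Stem cell markers of mammalian crypts were among the 12. LGR5, the receptor for R-spondins, fell by 1.74 on the log2 scale (adjusted p = 0.023), ASCL2, a stem cell transcription factor, by 0.85 (adjusted p = 0.0165), and LRIG1 by 1.42 (adjusted p = 0.0272). The Wnt feedback genes ZNRF3, NKD1 and NOTUM fell by 1.61, 0.74 and 1.08. OLFM4, a secreted glycoprotein of crypt cells, was at 30.2 to 599 TPM (median 81.2) against 161 to 1753 TPM (median 790), so the groups overlapped widely. Its log2 fold change was -2.57 (SE 0.82, adjusted p = 0.0331), it passed in 4 of the 13 fits with a library left out, and with the mitochondrial share as a covariate it was 0.0025. With the slope as a covariate 2 of the 23 genes were lower and the list median was -0.12, beside -0.11 for all genes.

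Cell cycle genes changed little by count. Of 33 tested, 2 fell (6.06%, beside 32.5% of all tested genes): CENPE and KIF11, motor proteins of the mitotic spindle, each by 1.18 on the log2 scale (adjusted p of 0.0166 and 0.0347). The list median was -0.28, or 0.15 after median-ratio rescaling.

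Among the absorptive lists the share called lower ran from 0% for sugar to 41.2% for lipid genes. Of 12 brush border genes 2 fell (16.7%, beside 32.5% of all tested genes), and 0 to 6 with 1 library left out, 6 without HASN replicate 3. MYO7B, an unconventional myosin of the links between microvilli, was at 1.97 to 41.8 TPM in injected hens (median 7.71) and 8.15 to 115 TPM in uninjected hens (median 65.9), with LASI replicate 6 the highest injected and HASN replicate 3 the lowest uninjected hen. Its log2 fold change was -2.67 (SE 0.65, adjusted p = 0.0185), and -0.83 with the slope as a covariate (adjusted p = 0.106). EPS8, an actin regulator of microvilli, fell by 1.52 (adjusted p = 0.0356) and had a log2 change of 0.04 with the mitochondrial share as a covariate. The list median was -0.36, beside -0.37 for all genes, and 0.09 after median-ratio rescaling, beside 0.02.

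Lipid uptake and lipoprotein genes fell in 7 of 17 cases (41.2%, beside 32.5% of all tested genes) and rose in 0, with a median log2 fold change of -0.59, or -0.14 after median-ratio rescaling with MTTP lower and FABP6 higher. Leaving out 1 library gave 0 to 9 lower. The count was 9 without HASN replicate 3, HASI replicate 2 or LASI replicate 6. It was 0 to 4 without any other library. MTTP, which loads lipid onto apolipoprotein B, fell by 1.51 (adjusted p = 0.0264) from 662 ± 330 TPM in uninjected hens (SD, n = 6) to 227 ± 151 TPM in injected hens (n = 7). MOGAT2, an enzyme of triglyceride synthesis, fell by 1.22, APOB by 0.87 and PLIN2, a lipid droplet protein, by 0.59. Of these, MTTP alone passed after rescaling (adjusted p = 0.0391).

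For peptide and amino acid absorption 3 of 13 genes fell (23.1%, beside 32.5% of all tested genes). The list median was -0.40, beside -0.37 for all genes, and 0.05 after median-ratio rescaling, beside 0.02. SLC6A6, the taurine transporter, had a log2 change of -2.73 (SE 0.72, adjusted p = 0.0217), at 3.74 to 38.5 TPM (median 8.48) against 6.84 to 309 TPM (median 103). The groups overlapped through HASN replicate 3, which was at 6.84 TPM. SLC36A1, a proton-coupled amino acid transporter, fell by 0.38 (adjusted p = 0.0192) but had a log2 change of 0.07 after rescaling. The peptide transporter SLC15A1 and the glucose transporter SLC5A1 had log2 fold changes of -0.34 and -0.46. Neither passed (adjusted p of 0.443 and 0.052). Of 7 sugar genes 0 passed, with a median of -0.41, or 0.03 after rescaling. Without HASN replicate 3, 4 of the 7 were lower, and without LASI replicate 6 it was 3. For the 13 peptide and amino acid genes these counts were 5 and 8. Of all 12847 tested genes 6722 and 5508 were lower in those fits. HNF4G, an enterocyte transcription factor, fell by 2.46 (adjusted p = 0.0237), while VIL1, FABP2, ANPEP and EPCAM had log2 fold changes between -0.15 and 0.18 that did not pass. After median-ratio rescaling these 4 lay between 0.31 and 0.64, and EPCAM passed at 0.44 (adjusted p = 0.0424).

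The other genes at the low end by fold also overlapped through HASN replicate 3, and in TMEM86A LASI replicate 6, at 168 TPM, lay above HASN replicate 5, at 68.4 TPM, as well. TMEM86A had a log2 change of -2.73 (adjusted p = 0.0332), MGAT5, a branching enzyme of N-glycans, -2.72 (adjusted p = 0.0204), HIPK1, a nuclear kinase, -2.57 (adjusted p = 0.0166), ABHD2 -2.48 (adjusted p = 0.0192) and MLXIP, a glucose-sensing transcription factor, -2.47 (adjusted p = 0.017). HIPK1 was the only one of these 5 that passed in every fit with a library left out, both rescalings and the slope covariate. Its values were 1.91 to 23.7 TPM (median 4.17) against 6.11 to 74.7 TPM (median 42.1), with HASN replicate 3 at the low end. ENSGALG00000047634, which the files pair with no name, fell by 3.11 (adjusted p = 0.021). At the high end, TPM4, a tropomyosin, had a log2 change of 2.12 (adjusted p = 0.0269) and PMP22, a membrane protein, 1.26 (adjusted p = 0.0186). Neither passed with the slope as a covariate (adjusted p of 0.583 and 0.274), and the TPM4 model overlaps RAB8A. ENSGALG00000050199, also without a name, rose by 4.16 (adjusted p = 0.044), at 0 to 533 TPM (median 219) against 0 to 310 TPM (median 1.53). Its high uninjected hen was HASN replicate 3 and its injected hen at 0 was LASI replicate 6. The model overlaps YWHAE, and with the slope as a covariate the log2 fold change was 0.19 (adjusted p = 0.943).

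Immune genes gave few calls, and in each immune list described next the share called lower, 0% to 23.5%, was under the 32.5% of all tested genes. Of the 12 plasma cell and secreted antibody genes 2 fell and 0 rose, with a median log2 fold change of -0.25. After median-ratio rescaling 3 of the 12 were higher and 1 lower, with a median of 0.18. Of all tested genes 8.1% were higher and 14.9% lower after that rescaling. PRDM1, which encodes the plasma cell factor Blimp-1, was at 0.95 to 7.13 TPM (median 1.97) against 3.25 to 12.2 TPM (median 8.52) (log2 fold change -1.42, SE 0.33, adjusted p = 0.0174). HASN replicate 3, at 3.25 TPM, was the only uninjected hen within the injected range of PRDM1. PIGR, the epithelial receptor that carries polymeric antibody into the lumen, was at 908 to 1890 TPM (median 1506) against 1505 to 3140 TPM (median 1897) (log2 fold change -0.64, adjusted p = 0.036). After median-ratio rescaling that of PIGR was -0.19 (adjusted p = 0.349). JCHAIN, the chain that joins antibody polymers, was at 525 to 1695 TPM (median 902) against 580 to 2499 TPM (median 1508). Its log2 fold change was -0.43 (adjusted p = 0.132), and 0.02 after rescaling. The summed TPM of the list was 1822 to 3899 in injected and 2504 to 4939 in uninjected hens (exact permutation p = 0.02, adjusted 0.17 over 17 measures). That sum includes the epithelial receptor PIGR, which at the values above is a large part of it. A sum without PIGR was not tested.

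For the T cell list 1 of 18 genes rose (5.56%, beside 1.23% of all tested genes) and 3 fell (16.7%, beside 32.5%). After median-ratio rescaling 2 were higher and 3 lower, beside 8.1% higher and 14.9% lower of all tested genes. The list median was then 0.34, beside 0.02 for all genes. CD28, a costimulatory receptor, rose from 3.58 ± 1.29 TPM (SD, n = 6) to 7.09 ± 2.05 TPM (n = 7) (log2 fold change 0.82, SE 0.23, adjusted p = 0.0241), or 1.2 after rescaling. BCL11B, a transcription factor of T cell identity, fell by 1.89 (adjusted p = 0.0155) and LCK, the kinase beside the T cell receptor, by 1.12 (adjusted p = 0.0193). The gene listed as FOXP3 (chromosome 12) fell by 1.89 (adjusted p = 0.0146), but in the RefSeq table of the GRCg7b build FOXP3 is a synonym of FOXP1 on chromosome 12, a broadly expressed gene, so this value is not one of a regulatory T cell marker. With the slope as a covariate 0 of the 18 passed. None of 10 B cell genes and none of 9 cytotoxic lymphocyte genes passed, with medians of -0.26 and -0.16, and of 0.17 and 0.28 after rescaling, where 2 B cell genes and 0 cytotoxic genes were higher.

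Among cytokines and receptors 4 of 17 fell, TNFSF15 by 1.44, IL1R1 by 1.64, IL18 by 0.78 and IL13RA1 by 0.89. After median-ratio rescaling 3 of the 17 were higher and 2 lower, beside 8.1% higher and 14.9% lower of all tested genes. The transcripts of IFNG, IL2, IL4, IL6, IL10, IL13 and IL21 were in the table but under the expression filter. Of 23 chemokines and receptors only CX3CL1 passed, falling by 0.39 (adjusted p = 0.0389), with a log2 change of 0.05 after rescaling. Rescaling called 3 of the 23 higher and 0 lower. Of 18 Toll-like receptor genes 3 fell, TRAF6, an adaptor, by 1.67, NFKB1 by 0.55 and TLR5, the flagellin receptor, by 0.64. After rescaling 1 of the 18 was lower and 0 were higher. Without HASN replicate 3, 8 of the 18 were lower, and without LASI replicate 6 it was 7. Of 21 interferon-stimulated genes 4 fell, and after rescaling 2 were lower and 0 higher. Without HASN replicate 3, 9 of the 21 were lower, and without LASI replicate 6 it was also 9. Of all 12847 tested genes 6722 and 5508 were lower in those fits. HELZ2, a helicase-like coactivator, was at 1.83 to 13.4 TPM (median 3.48) against 3.52 to 31.5 TPM (median 23.5) (log2 fold change -2.03, SE 0.45, adjusted p = 0.0159), and TRIM25, a ubiquitin ligase of RNA sensing, fell by 1.58.

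Antigen presentation genes gave 1 call in 16: NLRC5, a regulator of class I genes, fell by 1.17 (adjusted p = 0.0285). The class I genes BF1 and BF2 had log2 fold changes of -0.16 and -0.05, and the class II genes BLB1 and BLB2 of -0.31 and 0.16 (adjusted p of 0.202 to 0.805), and after median-ratio rescaling the 4 values were 0.30, 0.40, 0.14 and 0.61. The models of BLB1 and BLB2 overlap that of BF1, so the split of reads among them is uncertain. Of 22 macrophage, dendritic cell and heterophil genes 2 fell, ZBTB46 by 1.14 and MRC1, the mannose receptor, by 0.65.

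Markers of other cells gave calls in shares under that of all genes: 32.5% of all tested genes were lower, and 0% to 31.2% in the lists that follow. Of 27 enteroendocrine genes 3 fell and 1 rose: TPH1, which makes serotonin, by 1.72 (adjusted p = 0.0205), PROX1 by 1.09 and RFX6 by 0.84, while GHRL, the ghrelin gene, rose by 0.48 (adjusted p = 0.024). In goblet cells GALNT12 fell by 1.24, the only call in 9. In smooth muscle and stroma 4 of 29 fell, PDGFRA, a receptor of villus and crypt fibroblasts, by 2.42 (adjusted p = 0.0205) and PDGFRB, of pericytes, by 1.82. In enteric neurons and glia 4 of 17 fell, ERBB3 by 0.74 and the receptor genes RET by 1.22 and GFRA1 by 1.10. In endothelium 5 of 16 fell (31.2%, 9 genes without HASN replicate 3 and 1 to 5 without any other library), MMRN1 by 0.84 and FLT1, a VEGF receptor, by 0.95. None of 7 erythroid genes passed. After median-ratio rescaling 2 enteroendocrine genes were higher and 2 lower, and 0 goblet cell and 0 erythroid genes passed. That rescaling called 3 stromal and 2 endothelial genes lower and 0 higher, and 1 neuron and glia gene higher and 2 lower. The medians of these lists then lay between -0.23, for goblet cells, and 0.30, for stroma. Of all tested genes 8.1% were higher and 14.9% lower after rescaling. The summed TPM of the stromal list was 4035 to 9073 in injected and 2720 to 8354 in uninjected hens (exact permutation p = 0.91), and of the endothelial list 103 to 167 and 100 to 243 (exact p = 0.06, adjusted 0.17).

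In the lists of regulators and stress genes 11.1% to 34.8% were called lower, around or under the share of all genes. Of 23 immediate early regulators 7 fell (30.4%, beside 32.5% of all tested genes) and 0 rose. Leaving out 1 library gave 2 to 8, and 2 to 4 without HASI replicate 1, HASN replicate 5 or 6, LASI replicate 2 or 3, or LASN replicate 5. The median log2 fold change was -0.28, above the -0.37 of all genes, or 0.12 after rescaling with 2 lower. FOSL2, a FOS family transcription factor, was at 5.88 to 40.2 TPM in injected hens (median 12.9) and 24.1 to 149 TPM in uninjected hens (median 76.8). The overlap came from HASN replicate 3 at 24.1 TPM and LASI replicate 6 at 40.2 TPM. On the log2 scale the change was -2.40 (SE 0.44, adjusted p = 0.0103), and -1.29 with the slope as a covariate (adjusted p = 0.033). ZFP36L1, which destabilises AU-rich messages, was at 34.4 to 135 TPM (median 74.7) against 143 to 351 TPM (median 234), with no overlap and a log2 change of -1.56 (SE 0.30, adjusted p = 0.0115). It did not pass with the slope as a covariate (adjusted p = 0.0894). BTG2, EGR1, KLF6, MCL1 and FOSB fell by 0.70, 0.79, 0.49, 0.33 and 0.68. None of these 5 passed after rescaling, where MCL1 was at 0.12.

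Of 23 heat shock chaperone genes 8 fell (34.8%, beside 32.5% of all tested genes) and 0 rose, with a median of -0.52, or -0.09 after rescaling with 3 lower. The count was 13 without HASN replicate 3 or LASI replicate 6, 10 and 8 without HASI replicate 2 or 5, and 0 to 5 without any other library. DNAJB1, a cochaperone of HSP70, fell by 1.32 (adjusted p = 0.0254) and CHORDC1, of HSP90, by 1.26 (adjusted p = 0.0225). Of 23 unfolded protein response genes 4 fell, SEL1L, of endoplasmic reticulum degradation, by 2.23 (adjusted p = 0.024). After rescaling 4 of the 23 were higher and 1 lower, with a median of 0.18, beside 8.1% higher and 14.9% lower of all tested genes. Leaving out 1 library gave 0 to 10 lower on deposited TPM. Of 27 cholesterol and fatty acid genes 3 fell, ACACA by 1.48 and SREBF1 by 0.61, and after rescaling 1 was lower and 0 higher. Without HASN replicate 3, 10 of the 27 were lower, and without LASI replicate 6 it was 9. Of 34 antioxidant genes 4 fell, among them TXNRD1, thioredoxin reductase, and after rescaling 2 were higher and 1 lower. Without HASN replicate 3, 11 of the 34 were lower, and without LASI replicate 6 it was 9. Of all 12847 tested genes 6722 and 5508 were lower in those fits.

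**Figure D4:**
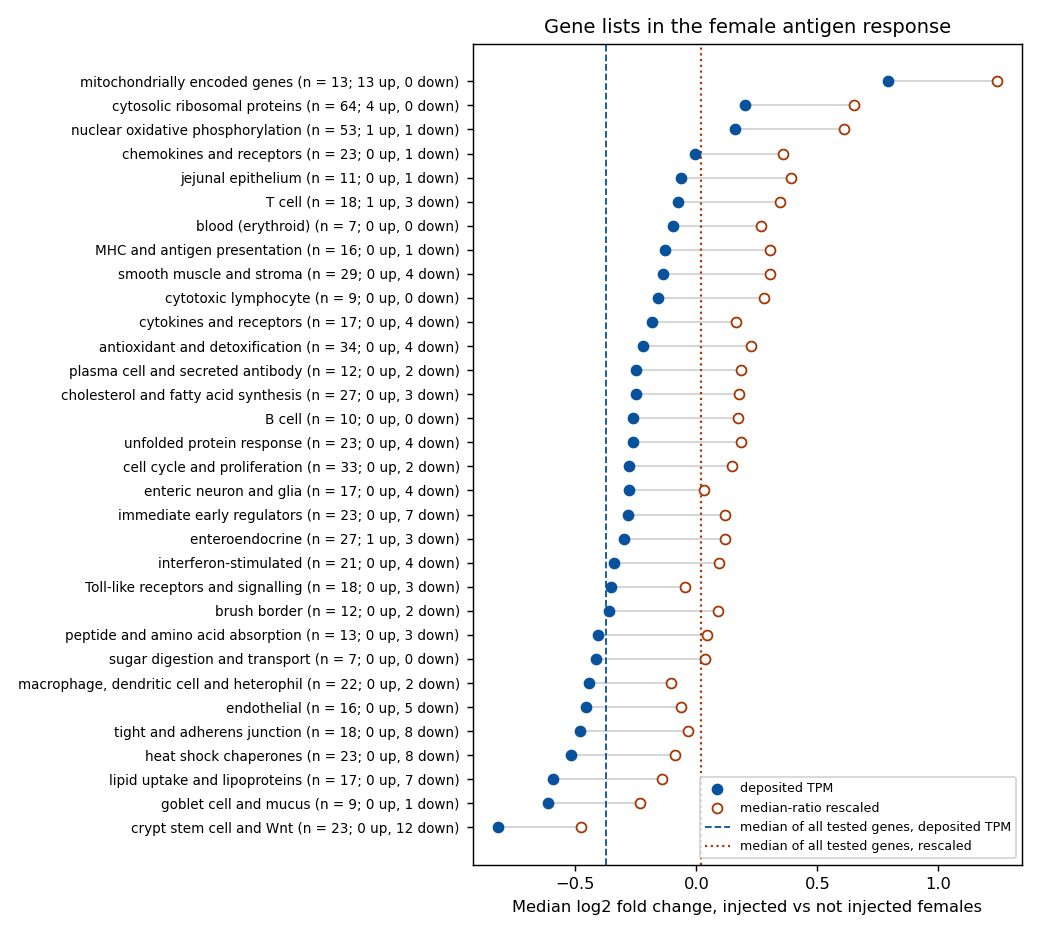
Median log2 fold change between injected and uninjected hens for each gene list with at least 5 tested genes, on deposited TPM (filled) and after median-ratio rescaling (open), with the medians of all tested genes as dashed and dotted lines at -0.37 and 0.02. Labels give the genes tested and those called on deposited TPM, from 13 of 13 higher for mitochondrially encoded genes to 12 of 23 lower for crypt and Wnt genes.

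Calls followed the length of genes. The tested genes were split into 4 classes of nearly equal size by genomic span. In the shortest class (median 3.14 kb) 16.6% were called lower in injected hens, and in the next classes, with medians of 8.63, 19.9 and 60.8 kb, 24.9%, 36.2% and 52.5%. After median-ratio rescaling the same shares were 7.0%, 8.90%, 15.7% and 28%. The shares called higher on deposited TPM were 2.40%, 1.15%, 0.748% and 0.623%. These are descriptions over genes, which are not replicates. Among named genes with a symbol, the 8 with the lowest folds all span more than the median of 13.3 kb, and OCLN, TP53INP2, FOSL2 and SOX9 span less. ENSGALG00000047634, without a symbol and with a lower log2 fold change of -3.11, also spans less (chromosome 6, 32286576 to 32291381).

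**Figure D5:**
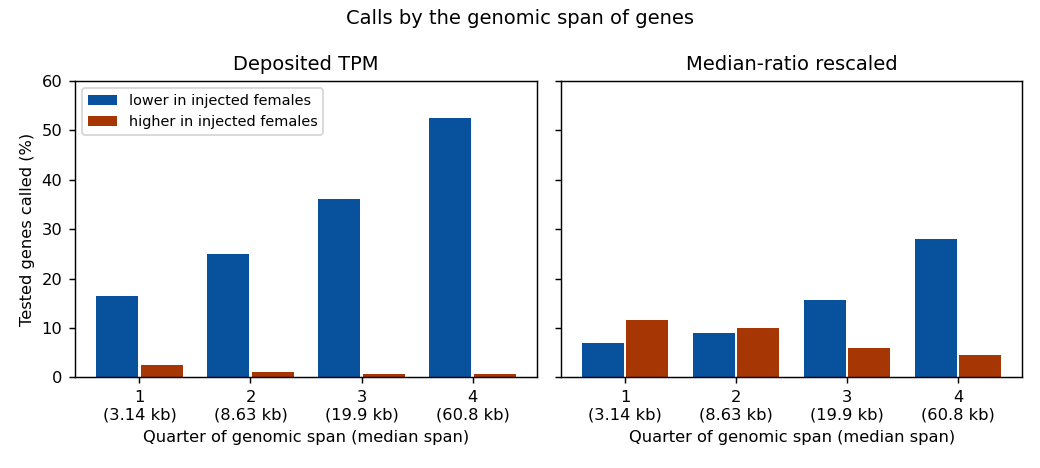
Percent of tested genes called lower or higher in injected hens by 4 classes of genomic span, on deposited TPM (left) and after median-ratio rescaling (right), with the median span of each class under its bars. The share called lower rises from 16.6% to 52.5% with span on the left and from 7.0% to 28% on the right.

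On the Z chromosome 9 of 576 tested genes were higher (1.56%) and 194 lower (33.7%), beside 1.23% and 32.5% of all tested genes. The level of W genes that picked the hens was 3.32 to 3.95 in injected and 3.40 to 4.29 in uninjected hens, given as a description.

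Within a line the groups were small. In HAS hens 13 of 12847 genes passed (0.101%), 2 higher (0.0156%) and 11 lower (0.0856%). ATP8 and ND4L rose by log2 fold changes of 1.93 and 1.54 (adjusted p of 0.0426 and 0.0231), and TP53INP2, PRELP and ZNF362 fell by 1.61, 1.30 and 1.04 (adjusted p up to 0.0469). Without HASN replicate 3 the count in HAS hens was 6674, while leaving out any other hen gave 1 to 11. In LAS hens 4 genes passed (0.0311%), all lower. RFLNA, a regulator of filamin, fell by 2.50 (adjusted p = 0.044), from 6.03 to 13.5 TPM in LASN to 0.362 to 2.40 TPM in LASI. ENSGALG00000054033 fell in either line, by 2.53 in HAS hens and 2.58 in LAS hens. Without HASN replicate 3, whose removal changes only the shared estimate of the spread here, the count in LAS hens was 1514, while leaving out any other hen gave 1 to 3.

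The test of the difference between lines itself gave 0 of 12847 genes with limma (0.0%), with 95 at an unadjusted p below 0.05. Without HASN replicate 3 it was again 0, with 489 at an unadjusted p below 0.05. With groups this small, the 0 calls do not show that the lines respond alike. The smallest p-values among named genes belonged to ND4L, RFLNA, FAM3B and ATP8. ND4L was at 3408 to 5945 TPM in HASI and 1320 to 1668 TPM in HASN, and at 2205 to 2671 TPM in LASI and 1894 to 2356 TPM in LASN. Its fold in HAS minus that in LAS was 1.36 on the log2 scale (interval 0.74 to 1.98, unadjusted p = 0.000439, adjusted p = 1). RFLNA in HASI and HASN stayed under 0.7 TPM, so its difference of 2.13 rests on LAS hens. CLDN1 had log2 fold changes of -0.88 in HAS and 0.35 in LAS hens, neither past the threshold, and a difference of -1.23 (unadjusted p = 0.0166).

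Male birds gave fewer calls, but the difference between the sexes did not pass for any gene. In the 11 male libraries (5 injected, 6 not) 3 of 12551 genes passed (0.0239%), all lower, with 811 at an unadjusted p below 0.05. After median-ratio rescaling 1 was higher and 1 lower (0.00797% each, 0.0159% in all). WIPF2 was one of the 3, at 7.28 ± 0.908 TPM in injected males (SD, n = 5) and 18.8 ± 1.66 TPM in uninjected males (n = 6) (log2 fold change -1.25, adjusted p = 0.0379) beside -1.42 in hens. ENSGALG00000054033 was another, at -2.44 beside -2.55. The mitochondrially encoded share in males was 23.1% ± 2.55 in injected and 17.2% ± 4.83 in uninjected birds, and the slope on genomic span was -0.17 ± 0.06 and -0.12 ± 0.12.

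The interaction of sex and injection over all 24 libraries called 0 of 13279 genes with limma (0.0%), with 145 at an unadjusted p below 0.05 and 1 called without HASN replicate 3. A call in hens that is missing in males is therefore not shown to differ between the sexes. Of 4063 genes that fell in hens and were tested in males, 4037 had a negative log2 fold change in males, on a scale where the male median of all genes was also negative, -0.22. The share of all tested genes that was negative in males is not given here. The 4037 are therefore not read as a likeness of the sexes in these genes. OCLN was at 76.1 ± 19.8 TPM in injected and 140 ± 13.6 TPM in uninjected males (log2 fold change -0.89, adjusted p = 0.17), and hens differed from males by -0.13 (interval -0.64 to 0.38). OST4 was at 18.5 ± 13.2 and 5.02 ± 4.07 TPM in males (log2 fold change 1.82, adjusted p = 0.603).

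Of the named genes with a symbol, HTR4 and TRIQK had the smallest unadjusted p for the difference between the sexes. HTR4, a serotonin receptor, was at 2.01 to 7.21 TPM in injected hens (median 4.07) and 4.66 to 14.1 TPM in uninjected hens (median 11.5) (log2 fold change -1.18, adjusted p = 0.0137). In males it was at 6.63 ± 0.781 and 7.37 ± 2.12 TPM, a log2 change of -0.12, and the difference of -1.05 (interval -1.71 to -0.39) had an unadjusted p of 0.00334 and an adjusted p of 0.972. PIGR fell in hens and had a log2 change of 0.15 in males, at 2037 ± 600 and 1921 ± 773 TPM, a difference of -0.78 (interval -1.46 to -0.11, unadjusted p = 0.025, adjusted p = 0.972). For SOX9 the difference was -0.93 (interval -1.85 to -0.02, unadjusted p = 0.045). The cell cycle list had a median of -0.28 in hens and 0.18 in males, with a median difference of -0.54 beside -0.18 for all genes, and none of its differences passed.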

How the data were processed

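RNA sequencing of 24 chicken jejunum libraries was analysed from a table the authors deposited in TPM, scaled to nearly 1e+06 per column over 15618 genes. The genome build was galGal6 per the submitters' processing notes, and the aligner, counter and strand setting are not given in the sources used here. No read counts were in the table, so depth is unknown and counting error cannot be given. Columns were matched to samples by line, treatment and replicate number, 0 columns were left unused, and 0 of 276 library pairs were identical.

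A gene was tested where 6 or more female libraries held it at 0.5 TPM or more, as log2(TPM + 1) with limma 3.58.1 in R 4.3.3 (line and injection as terms, intensity trend, robust moderation, two-sided). The Benjamini-Hochberg adjustment ran over every tested gene, with a threshold of 0.05, and fold changes of low genes are understated by the pseudocount of 1. Intervals are limma's 95% confidence intervals. Single measures were tested by exact permutation of treatment within line (700 arrangements, smallest p 0.00143). The labels do not say whether birds were penned or processed apart, so p-values measure the spread between these libraries. The fits were also run on simulated data with errors drawn independently for each gene and library. Those data hold no shift shared by the genes of a library, so they cannot show how calls behave under such shifts.

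Alternatives were median-ratio rescaling, other filters and a pseudocount of 0.1, all 24 libraries, no line term, the replicate block, a covariate for span slope or mitochondrial share, and leaving out each library. Rescaling over nuclear genes was chosen after seeing the data. Named genes were the 8 highest and the 8 lowest called folds (symbol given, mean TPM of 1 or more), 1 gene without a symbol at each end, the 3 called at each end or the 5 with the smallest p in fits within a line, in males and of interactions, the 2 members of each of 33 lists with the smallest adjusted p where called, and a set of tight junction, antibody, MHC and mitochondrial genes. Other list members are named as examples after their values were seen. The birds, lists and tests were chosen with earlier results of these data known. Of the 87 named symbols 84 are RefSeq symbols. Sequences were not used here, and 1 gene that the rule names is not reported here.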

Additional observations from a re-analysis of the deposited data

Results flagged for a closer look

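In 196 groups of 6 or 7 female values, 35 had a highest or lowest hen set apart by Dixon's criterion, which chance gives in about 1 of 20 independent groups. These groups are not independent: they come from the same hens, and many genes were named for their result in these data. The number of flags is therefore a description and not a test. Of these, 28 were HASN replicate 3 among the uninjected hens, 6 were LASI replicate 6 and 1 was HASI replicate 5 among the injected hens. Values are log2(TPM + 1) unless another quantity is named.

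HASN replicate 3 had a slope on genomic span of -0.24 against -0.05 in the nearest uninjected hen, and a summed TPM of cytotoxic lymphocyte genes of 2936 against 1558. Epithelial genes set apart on the low side were MYO7B at 3.19, EPS8 at 4.67, TJP1 at 2.87 and HNF4G at 4.37. Some immune genes were also set apart low, HELZ2 at 2.18, TRIM25 at 3.21, NLRC5 at 3.01, TRAF6 at 2.42, IL1R1 at 0.61, ZBTB46 at 2.55, PRDM1 at 2.09 and the gene listed as FOXP3 at 3.26, while BF2 at 12514 TPM and BLB2 at 5787 TPM had their highest female values in this hen. Also set apart on the low side were TPH1 at 0.54, PDGFRA at 1.61, PDGFRB at 0.98, KIF11 at 1.82, SEL1L at 2.96, CHORDC1 at 3.34 and TXNRD1 at 3.35. Low values were further held by MGAT5 at 2.37, HIPK1 at 2.83, ABHD2 at 3.74, NDUFS1 at 6.60 and ENSGALG00000047634 at 3.68. RPS15A stood high at 9.12, and ENSGALG00000050199 at 8.28.

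LASI replicate 6 stood high among the injected hens for BCL11B at 4.19, HELZ2 at 3.85, NLRC5 at 4.58 and TPH1 at 2.77, and low for TPM4 at 2.91 and RPL29 at 8.42. In HASI replicate 5 the summed TPM of cytotoxic lymphocyte genes was 3416, against 1720 in the next injected hen. The part of these hens in the calls was tested only by leaving each out.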

How the results depend on the processing

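Leaving out 1 library moved the count of called genes between 710 and 7189, between 1 and 6674 in HAS hens and between 1 and 1514 in LAS hens, the high ends without HASN replicate 3. The interaction of sex and injection gave 0 to 1 genes and that of line and injection 0. The difference in mitochondrial share ran from 9.05 to 12.3 percentage points, in the span slope from -0.15 to -0.087 (exact permutation p of 0.00333 to 0.08) and in genes above 0 from -92.5 to 123. The difference in summed TPM ran from -96.6 to 4.44 for erythroid, -152 to 342 for cytotoxic, -23.2 to 1.41 for neuron and glia, -851 to 1287 for jejunal epithelium, -1.23 to 1.51 for pancreatic and -793 to 533 for stromal genes, and was -137 for jejunal epithelium without line as a stratum. The log2 fold change of BF2 ran from -0.14 to 0.065.

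The count of 4338 became 2594 with rescaling over nuclear genes, 379 with the span slope, 2 with the mitochondrial share as a covariate, 2022 with a log2 fold change of at least 1 required, and 1 with the replicate block. The labels do not say whether a replicate number marks hens handled together. Of 10 same-numbered pairs, 4 deviated together with a correlation over 0.1, in a range of -0.67 to 0.76. So few pairs cannot show whether the numbers carry a pairing. In HAS hens the count of 13 became 35 with all 24 libraries, 2 with either rescaling, 56 with the slope and 1 with the block. In LAS hens the count of 4 became 13 with all 24 libraries, 1 with a pseudocount of 0.1, 2 with a filter of 1 TPM and 0 with the block. The causes were not tested.

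Directions turned after median-ratio rescaling for SLC36A1 (0.070), CX3CL1 (0.051), JCHAIN (0.021), CLDN1 (0.032), BLB1 (0.14), BF1 (0.30), BF2 (0.40) and FAM3B (0.23). They turned with the mitochondrial share as a covariate for OLFM4 (0.0025), EPS8 (0.037), CLDN1 (0.20), BLB1 (0.15), BF2 (0.0040) and ND5 (-0.026). ND5 is itself summed into that share, so its value is given only as a description. Directions also turned with the slope for BLB2 (-0.055), with nuclear rescaling for BF1 (0.045) and BF2 (0.15), and without the line term for BF2 (0.023). Depth is unknown, so limits of detection cannot be given.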
